A study of Mus musculus with 9 samples.

Results

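The genes described here encode the respiratory chain subunits made from the nuclear genome. They were chosen as the rows of the deposited table that lie outside chrM, the mitochondrial chromosome, and whose symbols begin with Nduf followed by a, b, c, s or v, with Uqcr, with Cox4 to Cox8, or with Atp5, leaving out names ending in -ps. The rule found 82 of 14912 rows. By name they comprise 36 complex I subunits, 7 complex I assembly factors, 8 complex III genes, 14 complex IV genes and 17 complex V genes. Of the 82 genes, 81 reached a normalized count of 5 in at least 3 of the 9 libraries and were tested. The gene left out was Cox7a1, a complex IV isoform best known from muscle. It had 3 reads in the mTO-iTreg libraries together, 13 in the TGFβ-iTreg libraries and 3 in the day 0 libraries.

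The respiratory chain sits in the inner mitochondrial membrane. Complex I takes electrons from NADH, complex III passes them from ubiquinol to cytochrome c, and complex IV passes them to oxygen; the proton gradient built on the way drives ATP synthesis by complex V. Most subunits come from nuclear genes and a few from mitochondrial DNA, so each complex joins products of both genomes. Activated T cells increase their mitochondrial mass, and regulatory T cells (Treg cells) are known for a high reliance on respiration.

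The cells were CD4+ T cells of the mouse strain B6.Cg-Foxp3tm2(EGFP)Tch/J, labelled in every group as hemizygous for Foxp3<tm2Tch>, an allele that makes eGFP under the control of Foxp3, the transcription factor that defines Treg cells. The mTO-iTreg group was eGFP-positive cells after 5 days of co-culture with murine colorectal tumour organoids, with IL-2 at 20 U/ml and stimulation through CD3 and CD28 by antibodies (1 µg/ml of each). The TGFβ-iTreg group was eGFP-positive cells after 5 days with no organoids listed, with TGFβ at 10 ng/ml, IL-2 at 300 U/ml and the same stimulation. The day 0 group was eGFP-negative cells with no treatment listed. Each group had 3 libraries of bulk RNA, so fewer cells of a type and less RNA per cell cannot be told apart. Nothing in the labels ties a library to an animal or a culture of its own, and the p-values therefore measure the spread between these samples, which may be technical. The library codes of the mTO-iTreg group differ in form from those of the other groups; organoids, TGFβ, the dose of IL-2 and any difference that these codes mark cannot be told apart.

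The libraries held 7551177 to 7969853 counts in mTO-iTreg cells, 2078223 to 9944952 in TGFβ-iTreg cells and 2267922 to 5328169 in day 0 cells. A single read was worth 0.494 to 2.69 normalized counts, that is, reads divided by a size factor per library. The sum of 8 T cell markers was 20900 to 25900 normalized counts in mTO-iTreg libraries, 20300 to 22400 in TGFβ-iTreg libraries and 29800 to 32600 in day 0 libraries. The 7 epithelial markers present summed to 43.7 to 124, 138 to 141 and 18.8 to 25.3 in the same order, with Cldn4 and Lgr5 at 0 in all mTO-iTreg libraries. Epcam was at 21.14 to 89.01 in mTO-iTreg, 74.11 to 112.6 in TGFβ-iTreg and 5.263 to 18.82 in day 0 libraries. Cdh1 was at 9.305 to 20.59, 25.09 to 52.86 and 0 to 5.263 in the same order. Lgals4 was at 9.549 to 9.964 in mTO-iTreg, 0 to 3.391 in TGFβ-iTreg and 0 to 11.6 in day 0 libraries. The 7 myeloid markers summed to 509 to 620, 667 to 829 and 581 to 1090, the 6 B cell markers to 61.1 to 119, 30.6 to 81.4 and 10.8 to 59.1, and the 5 markers of NK and CD8 T cells to 590 to 1360, 167 to 204 and 159 to 344. Most of the myeloid sums was Cst3, at 461.7 to 610.5, 651.7 to 804.3 and 471.9 to 678.4. Fcer1g was at 0 to 8.867, 0 to 6.104 and 57.9 to 230. Among B cell markers, Cd79b was at 48.49 to 72.98, 4.446 to 14.92 and 0 to 7.385. Cd79a was at 11.29 to 28.65, 24.7 to 40.69 and 5.263 to 26.37. Of the NK and CD8 T cell list, Eomes, which activated CD4+ T cells can express, was at 494.9 to 1243 in mTO-iTreg libraries and Klrb1c at 0. In the same libraries Cd8b1 was at 78.38 to 107.1, Cd8a at 11.79 to 18.42 and Klrk1 at 1.241 to 3.41. Cd8b1 was at 59.29 to 92.23 in TGFβ-iTreg and 108.7 to 121 in day 0 libraries. Foxp3 was at 37.22 to 81.04 normalized counts in mTO-iTreg libraries, 14.82 to 19.68 in TGFβ-iTreg libraries and 0 to 8.772 in day 0 libraries, and the transcript of the eGFP reporter at 261.7 to 461.5, 587.8 to 695.1 and 26.32 to 86.51. Rn45s, the ribosomal RNA precursor, took 1.03% of mTO-iTreg replicate 1 and 0.0616% to 0.241% of the other libraries. Xist, the RNA made from the inactive X chromosome of female cells, was at 313.7 to 401.2 in mTO-iTreg libraries. It was at 0, 2.713 and 70.65 in TGFβ-iTreg libraries and at 3.509, 0 and 212.1 in day 0 libraries. Xist is thus high in every mTO-iTreg library and in day 0 replicate 3, so the sex of the source animals and the treatment cannot be told apart. The part of these markers in the results below was not tested.

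The 82 genes took a larger share of the RNA in both induced groups than in day 0 cells. They made up 1.81%, 1.77% and 1.95% of the mTO-iTreg libraries, 2.06% to 2.13% of the TGFβ-iTreg libraries and 1.34% to 1.46% of the day 0 libraries. The 3 ranges did not overlap, but the gap between the induced groups rested in part on a single gene, Atp5h. Without it, a sum added after the values were seen, the shares were 1.71%, 1.67% and 1.85% in mTO-iTreg libraries, 1.85%, 1.91% and 1.83% in TGFβ-iTreg libraries, and 1.22%, 1.18% and 1.31% in day 0 libraries, and the induced groups overlapped. Complex V was at 0.589% ± 0.0306 in mTO-iTreg cells, 0.781% ± 0.0302 in TGFβ-iTreg cells and 0.546% ± 0.0125 in day 0 cells (SD, n = 3 each). Of this, Atp5h alone made up 0.0951% ± 0.00509, 0.221% ± 0.0122 and 0.157% ± 0.00943 of the libraries, and the other complex V genes 0.494% ± 0.0254, 0.559% ± 0.0305 and 0.389% ± 0.0101, in the same groups. Complex I was nearly level between them, at 0.642% ± 0.0343 in mTO-iTreg cells and 0.652% ± 0.0147 in TGFβ-iTreg cells, against 0.413% ± 0.0316 in day 0 cells. The mRNAs of the mitochondrial genome ran in another order. They made up 4.76% to 5.37% of mTO-iTreg libraries, 8.72% to 10.3% of TGFβ-iTreg libraries and 15.9% to 16.8% of day 0 libraries. These large shares also enter each library's total. With chrM rows taken out of the totals, the 82 genes were at 2.10% ± 0.11, 2.36% ± 0.0208 and 1.72% ± 0.0611 in mTO-iTreg, TGFβ-iTreg and day 0 cells (SD, n = 3 each), and the order was kept.

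**Figure D1:**
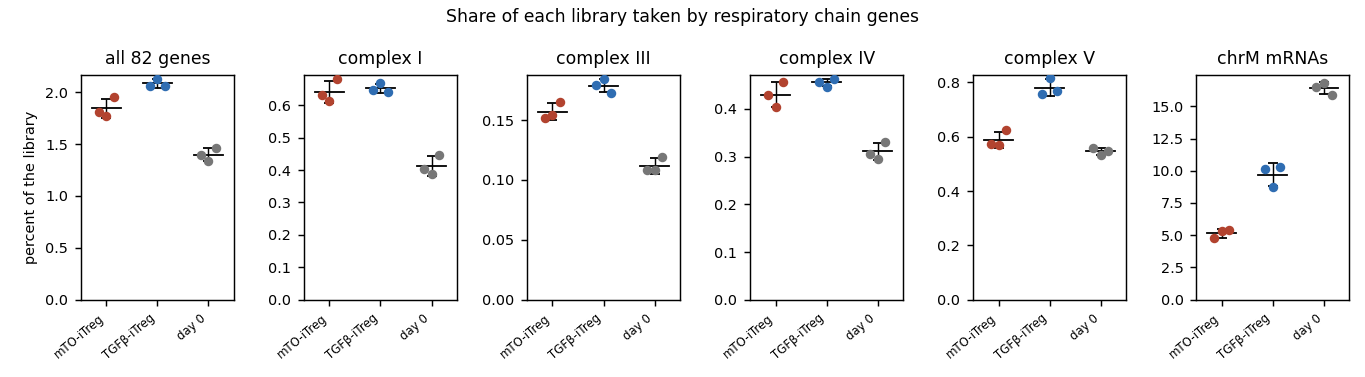
Share of each library (percent of its summed normalized counts) taken by the 82 nuclear-encoded respiratory chain genes, by complexes I, III, IV and V, and by the chrM mRNAs, in mTO-iTreg, TGFβ-iTreg and day 0 cells. Points are libraries, bars the mean and SD (n = 3); for all 82 genes, the mTO-iTreg libraries sit at 1.77% to 1.95%, between the TGFβ-iTreg and the day 0 libraries.

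A gene was called when the Benjamini-Hochberg adjusted p of limma's moderated test, over all 10983 rows tested, was under 0.05. Between mTO-iTreg and TGFβ-iTreg cells, 18 of the 81 genes were called higher in mTO-iTreg cells and 19 lower, where 14.9% of all rows tested were called higher and 11.8% lower. The median log2 difference was -0.09 over the 81 genes and 0.13 over all rows. With TMM factors in place of the authors' scaling, 15 genes were called higher and 24 lower, where 1400 of all rows were higher and 1483 lower. With quantile normalization, 20 genes were higher and 17 lower (1372 and 1559 of all rows), and the medians of the 81 genes and of all rows came to lie together, at -0.05 and -0.04. Against day 0, 32 genes were called higher in mTO-iTreg cells and 7 lower, beside 19.4% and 14.5% of all rows, with a median of 0.24 against 0.09 for all rows. Without day 0 replicate 2 these medians were 0.10 and 0.07. In TGFβ-iTreg cells, 31 were called higher and 1 lower than on day 0, beside 9.78% and 8.8% of all rows, with a median of 0.33 against -0.02. The comparisons with day 0 share the day 0 libraries, and each pair of comparisons shares a group, so their counts are given side by side and their overlap is not read as a result. In all, 55 of the 81 genes were called in at least 1 comparison and 26 in none.

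**Figure D2:**
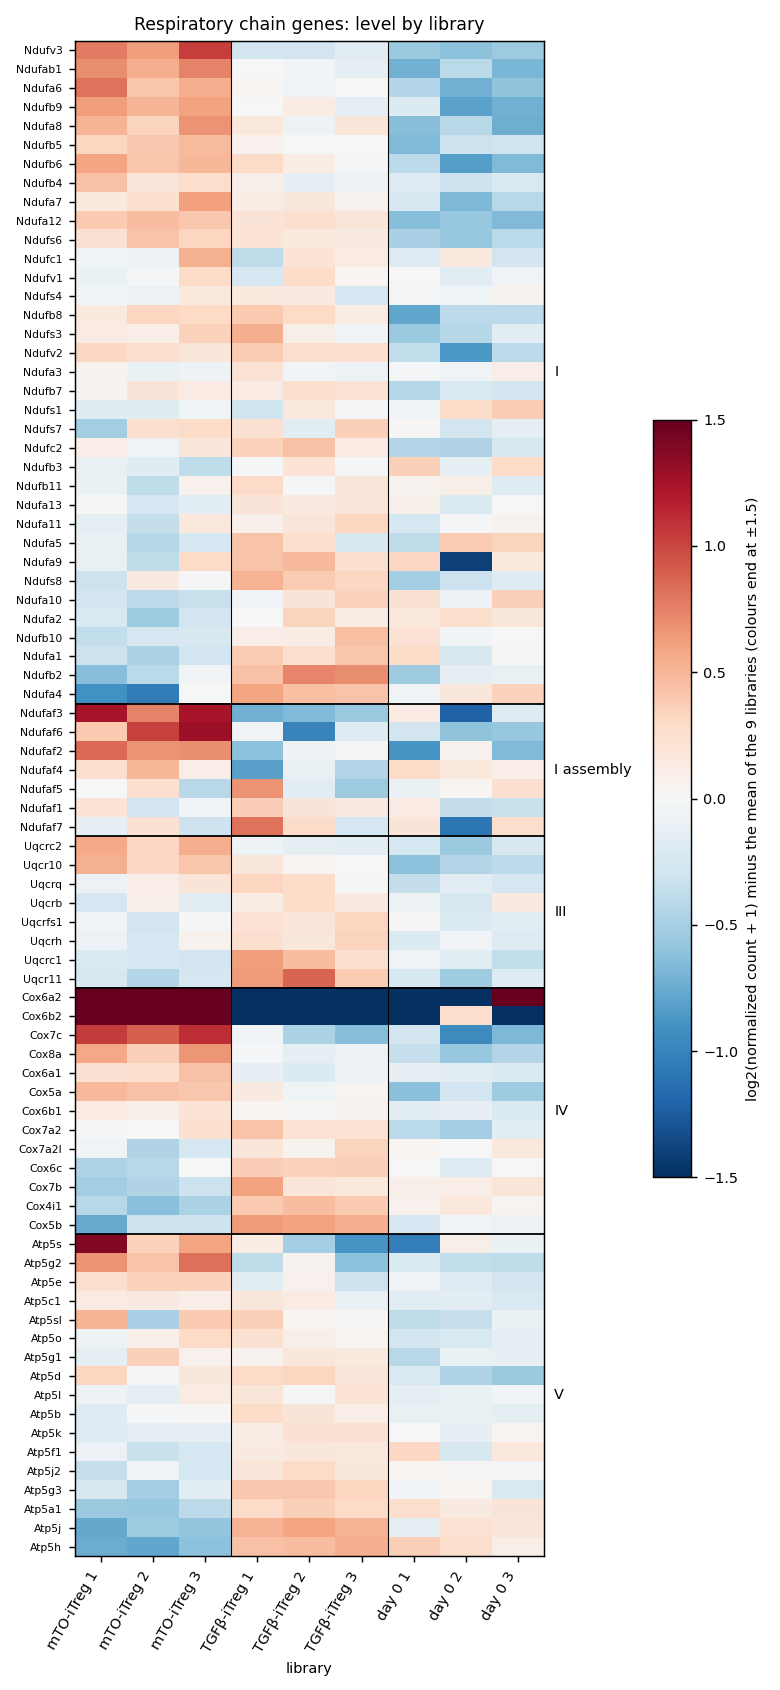
Level of 80 of the 81 tested genes in each library, as log2(normalized count + 1) minus the gene's mean over the 9 libraries, with complexes I, I assembly, III, IV and V separated by lines and genes ordered within each by the difference between mTO-iTreg and TGFβ-iTreg cells. Each complex holds genes that are higher and genes that are lower in mTO-iTreg than in TGFβ-iTreg cells; Cox6a2 and Cox6b2 run past the colour scale.

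**Figure D3:**
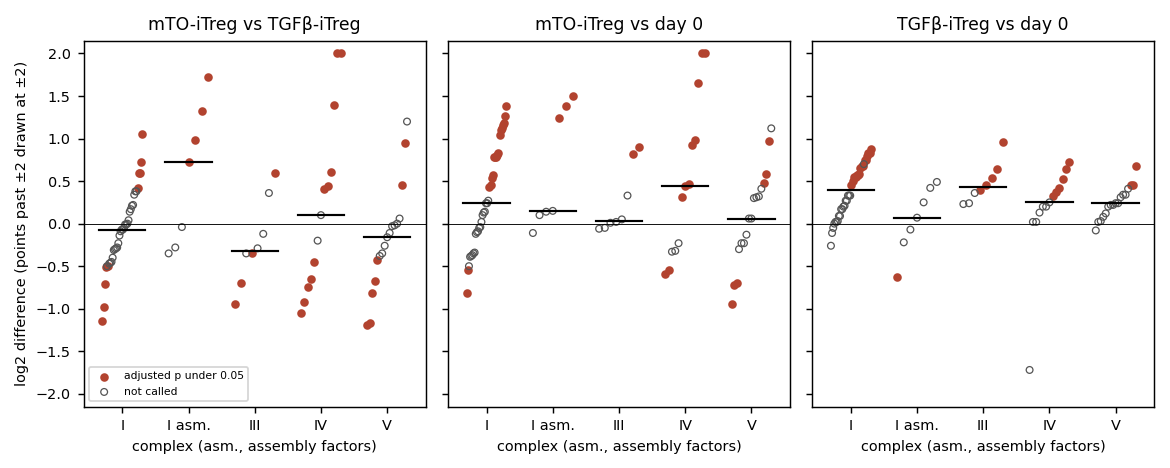
Log2 difference of each tested gene in the 3 comparisons, by complex, with filled points for genes called at an adjusted p under 0.05, open points for the others and a line at the median. The 36 complex I subunits have medians of -0.07, 0.24 and 0.39 from left to right, and Cox6a2 and Cox6b2 are drawn at the upper edge in the comparisons of mTO-iTreg cells.

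Complex V, the ATP synthase, held the 2 largest falls of mTO-iTreg against TGFβ-iTreg cells. Of its 17 genes, 6 fell and 2 rose, and the median was -0.16. The falls were 35.3% and the rises 11.8%, beside 11.8% and 14.9% of all rows tested, so the rises were under the share of all rows. Atp5h encodes subunit d of the peripheral stalk, the arm that holds the catalytic head still while the ring below it turns, and lies at chr11:115415689-115419962 on the minus strand (GRCm38, as all gene positions here, from GENCODE M21). Its normalized counts were 4704, 4598 and 5136 in mTO-iTreg libraries, 10680, 10830 and 11460 in TGFβ-iTreg libraries, and 10090, 9473 and 8370 in day 0 libraries. The mTO-iTreg libraries lay below every other library. The log2 difference was -1.19 ± 0.10 against TGFβ-iTreg cells (SE, limma adjusted p = 4.1e-06) and -0.95 ± 0.10 against day 0 cells (adjusted p = 1.4e-05).

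Atp5j, which encodes coupling factor 6 of the same stalk, moved in opposite directions from day 0 in the 2 induced groups. Its normalized counts were 615.9, 725.8 and 706.1 in mTO-iTreg libraries, 1518, 1589 and 1500 in TGFβ-iTreg libraries, and 952.7, 1228 and 1195 in day 0 libraries, and no groups overlapped. It was 2.25-fold lower in mTO-iTreg than in TGFβ-iTreg cells (log2 -1.17 ± 0.13, SE, limma adjusted p = 3.6e-05). It fell against day 0 in mTO-iTreg cells (-0.72 ± 0.13, adjusted p = 0.0011) and rose against day 0 in TGFβ-iTreg cells (0.46 ± 0.13, adjusted p = 0.031). The rise lost its call without TGFβ-iTreg replicate 1, 2 or 3 or day 0 replicate 1, with adjusted p of 0.075, 0.093, 0.066 and 0.12. Exons of Atp5j overlap those of Gabpa on the other strand, and the handling of strand in the authors' counting is not given in the sources used here. Gabpa itself was at 53.14 to 85.61 normalized counts in mTO-iTreg libraries, 91.01 to 105.8 in TGFβ-iTreg libraries and 94.95 to 139.8 in day 0 libraries. The other stalk genes, Atp5f1 (subunit b) and Atp5o (the protein that confers oligomycin sensitivity), were not called in any comparison.

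The head of the synthase did not move as a block. Atp5a1, the alpha subunit, had 1761, 1743 and 1973 normalized counts in mTO-iTreg libraries, 3151, 3312 and 3154 in TGFβ-iTreg libraries, and 3105, 2831 and 2946 in day 0 libraries. It fell in mTO-iTreg cells by 0.81 ± 0.10 on the log2 scale against TGFβ-iTreg cells and by 0.70 ± 0.10 against day 0 (SE, limma adjusted p = 9.2e-05 and 0.00019). Atp5b, the beta subunit that carries the catalytic sites, was not called in any comparison, with log2 differences of -0.26 against TGFβ-iTreg cells and 0.06 against day 0. Atp5c1, the gamma subunit of the central stalk, was at 0.06 and 0.30 and likewise not called. Atp5d, the delta subunit, rose against day 0 in both induced groups, by 0.58 ± 0.13 in mTO-iTreg and 0.68 ± 0.13 in TGFβ-iTreg cells (adjusted p = 0.0038 and 0.0027). Atp5e, the epsilon subunit, rose in mTO-iTreg cells by 0.46 ± 0.13 against TGFβ-iTreg cells (adjusted p = 0.016), a call lost without TGFβ-iTreg replicate 1 or 3 (adjusted p of 0.051 and 0.069). Among the small membrane subunits, Atp5j2 was called lower in mTO-iTreg than in TGFβ-iTreg cells (-0.43, adjusted p = 0.019) and so was Atp5k (-0.35, adjusted p = 0.05), while Atp5l (-0.16) was not. The call for Atp5j2 was lost without mTO-iTreg replicate 1 or 3 or TGFβ-iTreg replicate 2 (adjusted p of 0.056 to 0.076). That for Atp5k was lost without any 1 of the 9 libraries (0.051 to 0.13). Atp5s and Atp5sl, whose products are not subunits of the synthase despite their names, were not called.

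The genes of the c-ring moved in opposite directions. The ring is the proton-driven rotor of the synthase, and Atp5g1, Atp5g2 and Atp5g3 encode the same mature protein behind different import sequences. Atp5g2, at chr15:102662864-102672352 on the minus strand, had 5077, 4267 and 5624 normalized counts in mTO-iTreg libraries, 2442, 3314 and 2085 in TGFβ-iTreg libraries, and 2711, 2454 and 2449 in day 0 libraries. Atp5g3, at chr2:73908447-73911326 on the minus strand, had 3985, 3298 and 4190 in mTO-iTreg libraries, 6215, 6222 and 5867 in TGFβ-iTreg libraries, and 4570, 4812 and 3999 in day 0 libraries. Thus Atp5g2 was higher in each mTO-iTreg library than in any other library, and Atp5g3 was lower there than in any TGFβ-iTreg library. Against TGFβ-iTreg cells, Atp5g2 rose in mTO-iTreg cells by 0.95 ± 0.16 (log2, SE, limma adjusted p = 0.00066) and Atp5g3 fell by 0.68 ± 0.12 (adjusted p = 0.00084). Against day 0, Atp5g2 rose in mTO-iTreg cells by 0.97 ± 0.16 (adjusted p = 0.00037) and was at 0.02 ± 0.16 in TGFβ-iTreg cells (adjusted p = 0.96). Atp5g3 was at -0.23 in mTO-iTreg cells (adjusted p = 0.15) and rose by 0.46 in TGFβ-iTreg cells (adjusted p = 0.015). The rise of Atp5g3 lost its call without TGFβ-iTreg replicate 1 or 2 or day 0 replicate 3 (adjusted p of 0.053, 0.05 and 0.057).

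As a share of the sum of the c-ring genes, Atp5g2 made up 52.7% ± 1.33 in mTO-iTreg cells, 27.7% ± 4.29 in TGFβ-iTreg cells and 33.9% ± 2.11 in day 0 cells (SD, n = 3 each). Atp5g3 made up 40.5% ± 0.967, 65.5% ± 3.85 and 59.4% ± 2.19, and Atp5g1 6.77% ± 1.93, 6.82% ± 0.604 and 6.74% ± 1.02, in the same groups. The sum itself was 9440 ± 1060 normalized counts in mTO-iTreg cells, 9350 ± 799 in TGFβ-iTreg cells and 7502 ± 452 in day 0 cells. The induced groups thus had a like total with another composition, and Atp5g1 held a like share in all 3 groups. The shares compare groups and not genes, since the counting of 3′ ends need not be equally efficient for each gene.

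**Figure D4:**
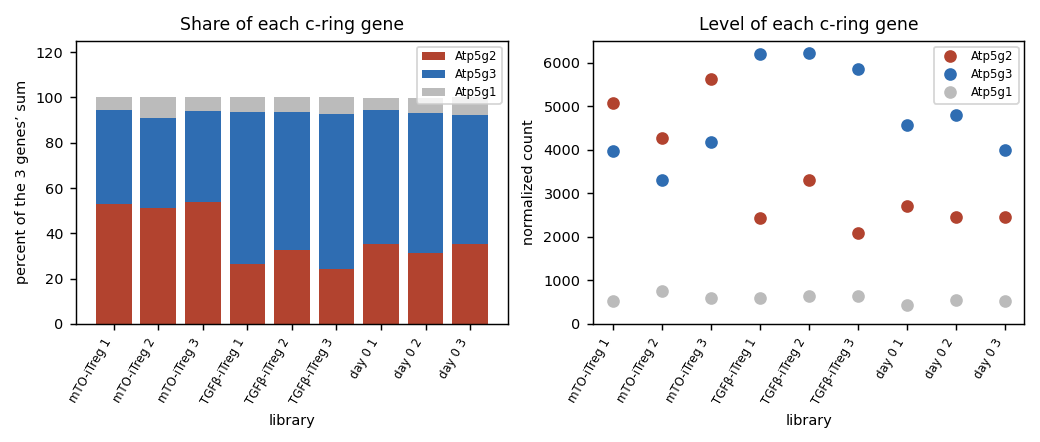
Left, share of Atp5g2, Atp5g3 and Atp5g1 in their summed normalized counts in each library; right, the normalized count of each gene. Atp5g2 makes up 51.3% to 54.0% of the sum in mTO-iTreg libraries, 24.3% to 32.5% in TGFβ-iTreg libraries and 31.4% to 35.1% in day 0 libraries.

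The promoters of the c-ring genes are printed because their transcripts moved apart, although they serve the same part of the enzyme. They are the RefSeq windows of 250 bases before to 50 bases after the annotated start (GRCm38.p6), read 5′ to 3′ on the strand of the gene. Only the first listed start of each gene was read. The Atp5g2 window lies inside the span of the gene given above, so a start further upstream would have another window. Capitals mark matches to the 8-letter core GCGCATGC of NRF1, a factor of nuclear genes for mitochondria (or its reverse complement GCATGCGC, which can overlap it), and to the E-box CACGTG bound by MYC. The Atp5g2 window holds the NRF1 core on both strands and no E-box, whereas those of Atp5g1 and Atp5g3 hold an E-box and no NRF1 core. A match is a description of these letters, not of binding.
Atp5g1 promoter, chr11:96075582-96075881, minus strand: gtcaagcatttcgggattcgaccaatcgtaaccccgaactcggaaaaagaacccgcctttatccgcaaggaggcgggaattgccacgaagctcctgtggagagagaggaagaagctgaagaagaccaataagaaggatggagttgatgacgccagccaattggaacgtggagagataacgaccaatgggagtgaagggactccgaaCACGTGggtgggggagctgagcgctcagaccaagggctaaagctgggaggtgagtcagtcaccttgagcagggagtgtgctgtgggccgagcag
Atp5g2 promoter, chr15:102670998-102671297, minus strand: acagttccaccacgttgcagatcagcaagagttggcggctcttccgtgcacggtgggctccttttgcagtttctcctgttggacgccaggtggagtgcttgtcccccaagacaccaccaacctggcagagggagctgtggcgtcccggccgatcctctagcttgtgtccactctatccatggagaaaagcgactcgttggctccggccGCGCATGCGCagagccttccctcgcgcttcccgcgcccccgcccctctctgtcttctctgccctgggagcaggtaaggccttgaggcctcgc
Atp5g3 promoter, chr2:73911277-73911576, minus strand: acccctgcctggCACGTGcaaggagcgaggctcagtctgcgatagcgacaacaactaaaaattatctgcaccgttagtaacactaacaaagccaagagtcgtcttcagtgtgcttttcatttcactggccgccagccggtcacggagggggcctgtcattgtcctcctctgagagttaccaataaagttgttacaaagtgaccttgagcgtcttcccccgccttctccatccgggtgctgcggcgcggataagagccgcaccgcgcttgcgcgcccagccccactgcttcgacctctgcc

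Complex IV, cytochrome c oxidase, was divided between mTO-iTreg and TGFβ-iTreg cells. Of its 13 tested genes, 6 rose and 5 fell in mTO-iTreg cells, and the median was 0.10. The rises were 46.2% and the falls 38.5%, beside 14.9% and 11.8% of all rows tested. The rises include Cox6a2 and Cox6b2, which passed the filter through the mTO-iTreg libraries. The share of rises thus counts genes that were tested because they were high there. A run without a filter on low values keeps both genes and adds Cox7a1, and its median was -0.05. The falls included Cox5b, a subunit on the matrix side that binds zinc, and Cox4i1, the general isoform of subunit IV, through which ATP is known to inhibit the enzyme. Cox5b, at chr1:36691449-36693681, had 545.6, 735.7 and 741.3 normalized counts in mTO-iTreg libraries, 1429, 1396 and 1339 in TGFβ-iTreg libraries, and 770.2, 892.4 and 869.3 in day 0 libraries. The mTO-iTreg libraries lay below all others (log2 -1.05 ± 0.14 against TGFβ-iTreg cells, SE, limma adjusted p = 0.00015). Against day 0, Cox5b was at -0.33 in mTO-iTreg cells (adjusted p = 0.089) and rose by 0.72 in TGFβ-iTreg cells (adjusted p = 0.0038).

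Cox4i1 had 2147, 1865 and 2076 normalized counts in mTO-iTreg libraries, 3773, 3974 and 3766 in TGFβ-iTreg libraries, and 3000, 3212 and 2969 in day 0 libraries, again with no overlap. It fell in mTO-iTreg cells by 0.92 ± 0.10 on the log2 scale against TGFβ-iTreg cells (SE, limma adjusted p = 3.1e-05) and by 0.59 ± 0.10 against day 0 (adjusted p = 0.00063). In TGFβ-iTreg cells it rose by 0.33 ± 0.10 against day 0 (adjusted p = 0.043). That rise lost its call without TGFβ-iTreg replicate 1, 2 or 3 (adjusted p of 0.092, 0.12 and 0.079) or day 0 replicate 1, 2 or 3 (0.11, 0.06 and 0.10). Exons of Cox4i1 overlap those of Emc8 on the other strand. Cox7b and Cox6c, small subunits of the membrane part, were also lower in mTO-iTreg than in TGFβ-iTreg cells, by log2 values of -0.74 and -0.65 (adjusted p = 0.0017 and 0.0029). Cox7b lies on the X chromosome.

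The genes that rose in mTO-iTreg cells encode other small subunits. Cox7c, at chr13:86044816-86046904, had 499.3, 449.1 and 518.8 normalized counts in mTO-iTreg libraries, 233.7, 172.9 and 153.6 in TGFβ-iTreg libraries, and 198.3, 123.7 and 150.9 in day 0 libraries. Every mTO-iTreg library lay above every other library. Its log2 difference was 1.40 ± 0.22 against TGFβ-iTreg cells and 1.65 ± 0.22 against day 0 (SE, limma adjusted p = 0.00048 and 8.9e-05). Cox8a rose 1.53-fold against TGFβ-iTreg cells (log2 0.61, adjusted p = 0.0013) and 1.98-fold against day 0 (log2 0.98, adjusted p = 2.1e-05). Cox6a1 rose by 0.44 and Cox5a by 0.41 against TGFβ-iTreg cells (adjusted p = 0.0081 and 0.026). The call for Cox5a was lost without mTO-iTreg replicate 1 or 2 or TGFβ-iTreg replicate 2 or 3 (adjusted p of 0.056 to 0.091).

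A pair of isoforms known from other tissues was detected in mTO-iTreg cells. Cox6b2, best known from testis, lies at chr7:4751792-4753094 on the minus strand. It had 347.2, 73.82 and 219.2 normalized counts in mTO-iTreg libraries (958 reads in all), 2.46, 1.356 and 0.494 in TGFβ-iTreg libraries (4 reads), and 0, 10.75 and 0 in day 0 libraries (4 reads). The ratio of group means was 149 against TGFβ-iTreg cells and 59.5 against day 0, where all 4 reads came from replicate 2, the shallowest library of that group. The ratio of the pooled levels was 204 and 98.7, with 95% counting intervals of 79.4 to 750 and 38.4 to 363 that cover counting error only. Within mTO-iTreg cells the libraries differed widely, and Cox6b2 made up 20.3%, 5.26% and 13.2% of its sum with Cox6b1, the general isoform. Apart from day 0 replicate 2, only the mTO-iTreg libraries reached the filter's minimum of 5, so the gene was tested because it was high there, and no p-value is given. Cox6b1 was at 0.10 against TGFβ-iTreg cells and not called (adjusted p = 0.53).

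Cox6a2, the isoform of heart and skeletal muscle, lies at chr7:128205435-128206387 on the minus strand, where its exons overlap those of Itgad, an integrin gene, on the other strand. It had 53.88, 132.8 and 148.8 normalized counts in mTO-iTreg libraries (517 reads), 0 in each TGFβ-iTreg library, and 0, 0 and 34.81 in day 0 libraries (33 reads). Set against the level of 3 reads over the TGFβ-iTreg group, its mTO-iTreg level was 146 times as high, and the exact 95% counting interval of the ratio began at 119. Against day 0 the ratio of group means was 9.63 and that of the pooled levels 6.46 (95% counting interval 4.54 to 9.49), with all day 0 reads in replicate 3. That library also had the highest levels of Fcer1g and Tyrobp, genes of myeloid and NK cells, at 230 and 86.51 normalized counts. In mTO-iTreg libraries Fcer1g was at 8.867, 0 and 0 and Tyrobp at 4.092, 1.861 and 0. Day 0 replicate 3 was also the day 0 library with the highest Xist, at 212.1 against 3.509 and 0. Xist was at 313.7 to 401.2 in mTO-iTreg libraries and at 70.65 in TGFβ-iTreg replicate 3, where Cox6a2 was at 0. Whether Cox6a2 goes with any of these genes was not tested. The general isoform Cox6a1 still made up 95.1% to 97.9% of the sum of both isoforms in mTO-iTreg libraries. Cox6a2 too passed the filter through the mTO-iTreg libraries, and neither a p-value nor a fitted log2 difference, which depends on the added count where a group is at 0, is given. Both isoforms are among the genes counted as called higher in mTO-iTreg cells against TGFβ-iTreg and against day 0 cells.

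Genes named for other complexes touch complex IV as well. Ndufa4 is named for complex I, but its protein is now assigned to complex IV. It had 1142, 1032 and 2144 normalized counts in mTO-iTreg libraries, 3234, 2932 and 2875 in TGFβ-iTreg libraries, and 2068, 2414 and 2726 in day 0 libraries. It fell in mTO-iTreg cells by 1.14 ± 0.22 on the log2 scale against TGFβ-iTreg cells (SE, limma adjusted p = 0.0016) and by 0.81 ± 0.22 against day 0 (adjusted p = 0.01). The groups did not overlap in the first of these comparisons, and mTO-iTreg replicate 3 lay inside the day 0 range. Cox7a2l, a factor that joins complexes III and IV into supercomplexes, was called lower in mTO-iTreg than in TGFβ-iTreg cells (-0.45, adjusted p = 0.017). That call was lost without mTO-iTreg replicate 2 or TGFβ-iTreg replicate 3 (adjusted p of 0.068 and 0.067).

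**Figure D5:**
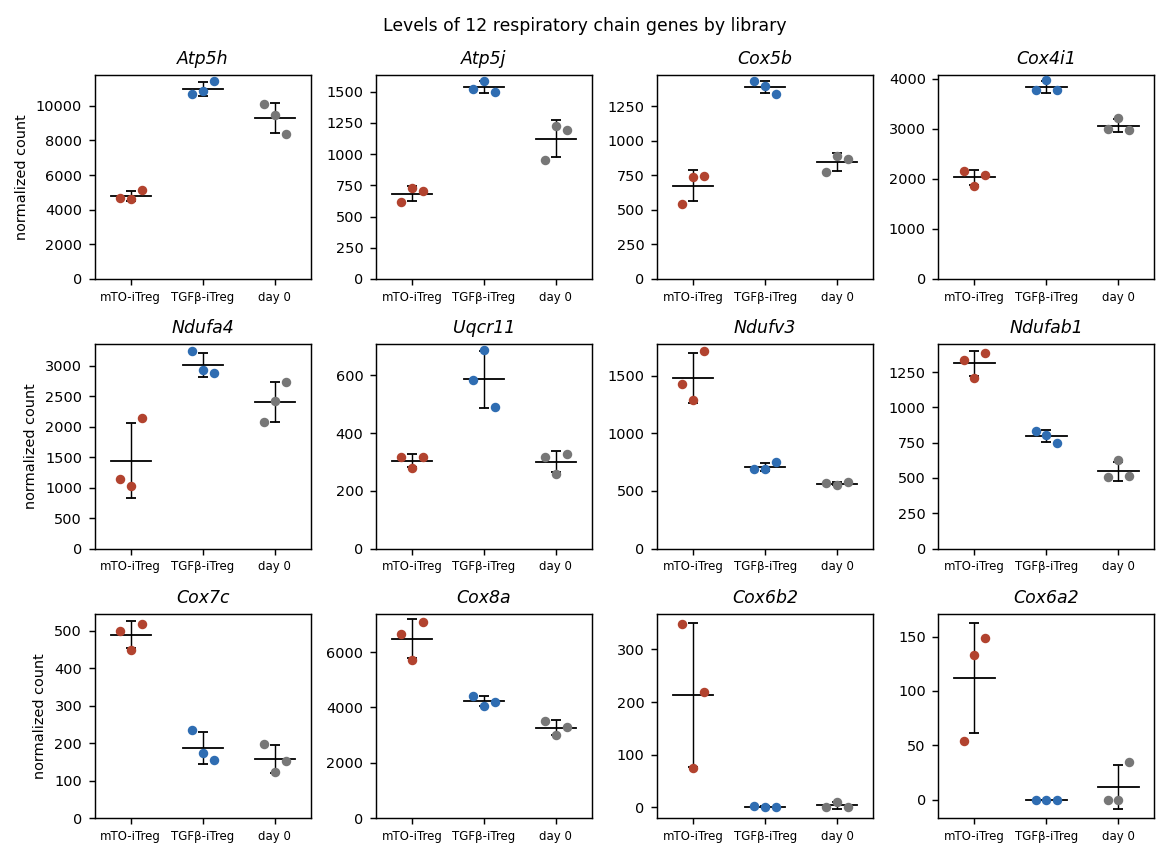
Normalized counts of 12 genes in mTO-iTreg, TGFβ-iTreg and day 0 libraries (points), with the mean and SD of each group (bars, n = 3). The mTO-iTreg libraries lie below the TGFβ-iTreg libraries for Atp5h, Atp5j, Cox5b, Cox4i1, Ndufa4 and Uqcr11, and above them for Ndufv3, Ndufab1, Cox7c, Cox8a, Cox6b2 and Cox6a2.

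Complex III had 3 falls and 1 rise among 8 genes between mTO-iTreg and TGFβ-iTreg cells (median -0.32), and the genes for its large core proteins went opposite ways. The falls were 37.5% and the rise 12.5%, beside 11.8% and 14.9% of all rows tested, so the rise was under the share of all rows. Uqcrc1 (core protein 1) had 291.2, 279.2 and 275 normalized counts in mTO-iTreg libraries, 519, 463.9 and 397.2 in TGFβ-iTreg libraries, and 324.6, 301.1 and 259.5 in day 0 libraries. Uqcrc2 (core protein 2) had 1099, 916.2 and 1086 in mTO-iTreg libraries, 701, 674.1 and 665.5 in TGFβ-iTreg libraries, and 619.3, 505.4 and 628.8 in day 0 libraries. Uqcrc1 was thus below, and Uqcrc2 above, all TGFβ-iTreg libraries in each mTO-iTreg library (log2 -0.70 ± 0.17 and 0.60 ± 0.14, SE, limma adjusted p = 0.0081 and 0.0065). Against day 0, Uqcrc2 rose in mTO-iTreg cells by 0.82 (adjusted p = 0.00052), whereas Uqcrc1 was at -0.06 (adjusted p = 0.81).

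Uqcr11, a small subunit at chr10:80402997-80406830, had the largest fall of complex III. It had 317.8, 277.3 and 315.5 normalized counts in mTO-iTreg libraries, 585.4, 687 and 489.6 in TGFβ-iTreg libraries, and 317.6, 258.1 and 327 in day 0 libraries. The TGFβ-iTreg libraries stood above both other groups, which overlapped. It was lower in mTO-iTreg than in TGFβ-iTreg cells by log2 -0.94 ± 0.18 (SE, limma adjusted p = 0.0016). Uqcrh, the hinge protein near cytochrome c1, was called lower as well (-0.35, adjusted p = 0.044), but lost the call without any 1 of mTO-iTreg replicates 1 and 2, TGFβ-iTreg replicates 1, 2 and 3, and day 0 replicates 1 and 3 (adjusted p of 0.051 to 0.15). Uqcrfs1, the Rieske iron-sulfur protein, and Uqcrb were not called in any comparison.

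In complex I, 5 of the 36 subunit genes rose and 5 fell in mTO-iTreg against TGFβ-iTreg cells, a share of 27.8% beside 26.6% of all rows tested. None of the 7 core subunit genes, whose products carry the flavin and iron-sulfur clusters that move electrons, was among them, with log2 differences that included -0.47 for Ndufs8, -0.14 for Ndufs7, -0.09 for Ndufs1, -0.05 for Ndufv2, -0.01 for Ndufs3 and 0.04 for Ndufv1. At an unadjusted p under 0.05, 1 of the 7 was lower and 0 were higher, and limma-voom on counts recovered from the table called 1 lower and 0 higher. The genes that were called encode accessory subunits, with Ndufa4 counted by its name. They were 34.5% of 29 accessory genes, beside 26.6% of all rows tested. A difference between core and accessory genes was not tested. Ndufv3, an accessory subunit of the NADH-oxidizing part, had 1429, 1290 and 1715 normalized counts in mTO-iTreg libraries, 693.6, 687.7 and 750.5 in TGFβ-iTreg libraries, and 568.4, 548.4 and 572.9 in day 0 libraries. The groups did not overlap. Its log2 difference was 1.05 ± 0.14 against TGFβ-iTreg cells and 1.38 ± 0.14 against day 0 (SE, limma adjusted p = 9.9e-05 and 6.4e-06).

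Ndufab1 encodes the mitochondrial acyl carrier protein, which also serves fatty acid synthesis and binds small proteins of the LYR family. It had 1338, 1211 and 1386 normalized counts in mTO-iTreg libraries, 833.8, 806.4 and 750 in TGFβ-iTreg libraries, and 503.5, 623.6 and 514.8 in day 0 libraries. Its log2 difference was 0.72 ± 0.13 against TGFβ-iTreg cells (SE, limma adjusted p = 0.0016) and 1.26 ± 0.13 against day 0 (adjusted p = 1.2e-05). Ndufa6, a LYR protein that binds it in complex I, rose by 0.59 against TGFβ-iTreg cells (adjusted p = 0.0035), and so did Ndufb9, another LYR protein, by 0.59 (adjusted p = 0.026). The call for Ndufb9 was lost without mTO-iTreg replicate 1 or 3 or TGFβ-iTreg replicate 1 or 3 (adjusted p of 0.062 to 0.089). Ndufa8 was called at 0.42 (adjusted p = 0.045), a call lost without mTO-iTreg replicate 1 or 3, any TGFβ-iTreg replicate, or day 0 replicate 1 (0.055 to 0.16).

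Besides Ndufa4, the falls of complex I were those of Ndufb2, Ndufa1, Ndufb10 and Ndufa2. Ndufb2 had 130.3, 153.2 and 198 normalized counts in mTO-iTreg libraries, 275.5, 338.4 and 331 in TGFβ-iTreg libraries, and 140.4, 185.5 and 188.8 in day 0 libraries, so the TGFβ-iTreg libraries stood above both other groups. It was lower in mTO-iTreg than in TGFβ-iTreg cells by log2 -0.98 ± 0.22 (SE, limma adjusted p = 0.0051). Ndufa1, an X-linked gene for a membrane subunit, was lower by log2 -0.71 ± 0.15 (adjusted p = 0.0033). Ndufb11, also on the X chromosome, was at -0.29 and not called (adjusted p = 0.17). Ndufb10 and Ndufa2 were called at -0.51 and -0.50 (adjusted p = 0.024 and 0.016). Without mTO-iTreg replicate 1 or TGFβ-iTreg replicate 3, the call for Ndufb10 was lost (0.074 and 0.11), as was that for Ndufa2 without mTO-iTreg replicate 2 or TGFβ-iTreg replicate 2 (0.063 and 0.075).

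The complex I assembly factors, proteins that help build the complex and are not part of it, gave 4 rises among 7 genes between mTO-iTreg and TGFβ-iTreg cells (median 0.73). This was 57.1%, beside 14.9% of all rows called higher. None of the 7 was called lower by limma or limma-voom, nor was any at an unadjusted p under 0.05 (0 of 7 each). Ndufaf3, at chr9:108565537-108567434, had 195.1, 137.7 and 195.3 normalized counts in mTO-iTreg libraries, 49.19, 51.54 and 55.33 in TGFβ-iTreg libraries, and 89.48, 34.94 and 71.74 in day 0 libraries. It was 3.38-fold higher in mTO-iTreg than in TGFβ-iTreg cells (log2 1.72 ± 0.36, SE, limma adjusted p = 0.003) and 2.69-fold higher than on day 0 (1.5 ± 0.36, adjusted p = 0.0052). Every mTO-iTreg library lay above every other library. Its exons overlap those of Impdh2 on the other strand. Ndufaf6 rose by 1.32 (adjusted p = 0.015), Ndufaf2 by 0.98 (0.046) and Ndufaf4, a partner of Ndufaf3, by 0.73 (0.017) against TGFβ-iTreg cells. The call for Ndufaf6 was lost without mTO-iTreg replicate 3 or TGFβ-iTreg replicate 2 (adjusted p of 0.068 and 0.064), that for Ndufaf4 without mTO-iTreg replicate 2 or TGFβ-iTreg replicate 1 (0.066 and 0.076), and that for Ndufaf2 without any 1 of the 6 libraries compared (0.069 to 0.14). Ndufaf1, Ndufaf5 and Ndufaf7 were not called in any comparison.

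Against day 0, the rises of mTO-iTreg cells were most numerous in complexes I and IV. Of the genes tested, 16 of 36 complex I subunits, 3 of 7 assembly factors, 2 of 8 genes of complex III, 8 of 13 of complex IV and 3 of 17 of complex V rose. Beside 19.4% of all rows, these were 44.4%, 42.9%, 25.0%, 61.5% and 17.6%, so that complex V was at the share of all rows and complex III near it. The complex IV count includes Cox6a2 and Cox6b2, which passed the filter through the mTO-iTreg libraries and were thus tested because they were high there. Within complex I, accessory subunits had the largest log2 rises, of 1.38 for Ndufv3, 1.26 for Ndufab1, 1.18 for Ndufa6, 1.16 for Ndufb9, 1.13 for Ndufb6, 1.10 for Ndufa8 and 1.04 for Ndufa12 (limma adjusted p of 4.7e-06 to 0.00023). Among core subunits, Ndufv2 rose by 0.78 (adjusted p = 0.0018) and Ndufs3 by 0.57 (adjusted p = 0.02); the call for Ndufs3 was lost without mTO-iTreg replicate 3 or day 0 replicate 1 or 2 (adjusted p of 0.077, 0.08 and 0.054). In complex III, Uqcr10 rose by 0.90 and Uqcrc2 by 0.82. The 7 falls were those of Atp5h, Atp5j, Atp5a1, Cox4i1, Ndufa4, Cox7b (-0.54, adjusted p = 0.0087) and Ndufa2 (-0.55, adjusted p = 0.0071). Without day 0 replicate 2, the shallowest of that group, 11 genes were called lower. With TMM factors 29 were called higher and 12 lower. The calls for Cox6b1 (0.31, adjusted p = 0.046) and Ndufb7 (0.43, adjusted p = 0.044) were lost without any 1 library of the 9, with adjusted p of 0.057 to 0.13 and 0.054 to 0.12. That for Cox7a2 (0.44, adjusted p = 0.039) was lost without any mTO-iTreg replicate, TGFβ-iTreg replicate 2, or day 0 replicate 1 or 2 (0.053 to 0.13).

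In TGFβ-iTreg cells the rise against day 0 was small for each gene and spread over the complexes, since 72 of the 81 log2 differences were positive and none of the called ones reached 1. Called rises came to 17 of 36 complex I subunits, 5 of 8 genes of complex III, 6 of 13 of complex IV and 3 of 17 of complex V, or 47.2%, 62.5%, 46.2% and 17.6% beside 9.78% of all rows. Among them were 4 of the 7 core subunits of complex I, including Ndufv2 (0.83), Ndufs8 (0.75) and Ndufs3 (0.57). By limma-voom, 1 of the 7 was called higher, and 21 of the 81 genes, where 616 of all rows were higher. Both Ndufs8 and Ndufs3 lost their calls without single libraries: Ndufs8 without any TGFβ-iTreg or day 0 replicate (adjusted p of 0.051 to 0.12), and Ndufs3 without TGFβ-iTreg replicate 1 or 2 or day 0 replicate 1 or 2 (0.054 to 0.15). The genes that kept the call under every alternative run were Uqcr11 (0.96), Ndufv2 (0.83), Ndufa12 (0.83), Ndufb8 (0.79), Ndufb6 (0.75), Cox5b (0.72), Ndufa8 (0.68), Ndufc2 (0.68) and Atp5d (0.68), with limma adjusted p of 9.1e-05 to 0.0066. The number of genes called higher depended on single libraries. It was 16, 15 and 19 without TGFβ-iTreg replicate 1, 2 and 3, and 19, 22 and 19 without day 0 replicate 1, 2 and 3, against 31 with all. Ndufa12 serves as an example of a stable member, with 3440, 3612 and 3478 normalized counts in mTO-iTreg libraries, 3008, 3096 and 2981 in TGFβ-iTreg libraries, and 1691, 1766 and 1659 in day 0 libraries. Both induced groups lay wholly above day 0. The gene called lower in TGFβ-iTreg cells, Ndufaf4 (-0.63, adjusted p = 0.044), lost its call without mTO-iTreg replicate 1, TGFβ-iTreg replicate 1 or 3, or any day 0 replicate (0.056 to 0.17).

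The 26 genes called in no comparison include the core subunits Ndufs1, Ndufs7 and Ndufv1, the beta and gamma subunits of the synthase and the Rieske protein. Both genes that follow were chosen after their values were seen, to show a wide and a narrow spread. Ndufa9 had 172.6, 142.7 and 227.2 normalized counts in mTO-iTreg libraries, 250.9, 261.8 and 219.9 in TGFβ-iTreg libraries, and 231.6, 69.89 and 207.8 in day 0 libraries, the low value being that of the shallowest day 0 library. Ndufs4 had 469.9, 456.6 and 541.4 in mTO-iTreg libraries, 538.7, 532.4 and 404.6 in TGFβ-iTreg libraries, and 475.5, 465 and 502.2 in day 0 libraries. A gene that was not called is not shown to be equal between groups.

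Genes around the chain were taken from lists by function. None of the 4 genes of complex II, which links the chain to the citric acid cycle, was called in any comparison. At an unadjusted p under 0.05, 1 was lower in mTO-iTreg than in TGFβ-iTreg cells, 1 was higher in TGFβ-iTreg than in day 0 cells, and 0 passed in mTO-iTreg against day 0 cells; limma-voom called 1, 0 and 0. For example, Sdha was at 780 ± 156 normalized counts in mTO-iTreg cells, 806 ± 70.9 in TGFβ-iTreg cells and 804 ± 57.3 in day 0 cells (SD, n = 3 each). Sdhd was at 72.1 ± 15.9, 124 ± 9.26 and 70.0 ± 10.7 in the same groups, a log2 difference of -0.80 between mTO-iTreg and TGFβ-iTreg cells and of 0.82 between TGFβ-iTreg and day 0 cells (limma adjusted p = 0.058 and 0.066). Of 19 complex IV assembly genes, 6 were called higher and 3 lower in mTO-iTreg than in TGFβ-iTreg cells, which is 31.6% and 15.8% beside 14.9% and 11.8% of all rows. Of the 6, Cox14 lost its call without any mTO-iTreg replicate or TGFβ-iTreg replicate 1 or 3 (adjusted p of 0.054 to 0.076), and Surf1 without mTO-iTreg replicate 1 or 2 or TGFβ-iTreg replicate 2 or 3 (0.062 to 0.078). Cmc1, which stabilises a mitochondrially encoded subunit during assembly, was at 962 ± 219 in mTO-iTreg cells, 258 ± 56.4 in TGFβ-iTreg cells and 258 ± 55.2 in day 0 cells (log2 1.89 against each, limma adjusted p = 4.5e-05 and 2.9e-05). Coa4 (2.23) and Cox18, an insertase for subunit 2 (1.81), rose as well (adjusted p = 0.0018 and 0.005), while Pet100 (-1.15) and Cox20 (-0.83) fell (0.01 and 0.0033). Of 9 complex I assembly genes outside the Ndufaf names, 3 were called higher in mTO-iTreg than in TGFβ-iTreg cells (33.3%, beside 14.9% of all rows). They were Nubpl (2.12, adjusted p = 0.049), Ecsit (1.06, 0.038) and Lyrm2 (1.04, 0.024). Each lost its call without any 1 of the mTO-iTreg libraries or TGFβ-iTreg replicate 1. Nubpl lost it also without TGFβ-iTreg replicate 3 or day 0 replicate 1 or 3, and Ecsit without TGFβ-iTreg replicate 2 or 3 (adjusted p of 0.051 to 0.17 in all). Of 5 assembly genes of complexes II and III, Lyrm7, an assembly factor of complex III, was called higher in mTO-iTreg than in TGFβ-iTreg cells (2.12, adjusted p = 0.024). Its call was lost without mTO-iTreg replicate 1 or 3 or TGFβ-iTreg replicate 3 (0.069 to 0.1). Against day 0, Sdhaf1 was called higher in mTO-iTreg (1.65, limma adjusted p = 2.1e-05) and TGFβ-iTreg cells (1.45, 0.00017). Lyrm7 (1.99, 0.026) and Bcs1l (1.23, 0.039) were called higher in mTO-iTreg than in day 0 cells, calls lost without single libraries.

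Carriers and the inhibitor of the synthase went apart between the induced groups. Of 6 carriers and porins, 3 fell in mTO-iTreg against TGFβ-iTreg cells, which is 50% beside 11.8% of all rows. Slc25a5, the main exchanger of ADP and ATP in dividing cells, was at 1730 ± 107 normalized counts in mTO-iTreg cells, 3490 ± 98.0 in TGFβ-iTreg cells and 2320 ± 210 in day 0 cells (SD, n = 3 each). Its relative Slc25a4 was at 249 ± 38.9, 578 ± 51.6 and 250 ± 64.0 in the same groups. Both were lower in mTO-iTreg than in TGFβ-iTreg cells (log2 -1.01 and -1.22, limma adjusted p = 2.2e-05 and 0.00074), as was the phosphate carrier Slc25a3 (-0.72, adjusted p = 0.0034). Atpif1, which encodes the inhibitor that blocks ATP hydrolysis by the synthase, was at 727 ± 52.0 in mTO-iTreg cells, 400 ± 56.8 in TGFβ-iTreg cells and 159 ± 42.1 in day 0 cells, and was called in each comparison (adjusted p = 0.0076 between the induced groups, 4.5e-06 and 0.00062 against day 0). Atpaf2, an assembly factor of the head, was called lower in mTO-iTreg than in TGFβ-iTreg cells (-1.15, adjusted p = 0.029), a call lost without mTO-iTreg replicate 1 or 3 or TGFβ-iTreg replicate 3 (0.089 to 0.14).

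Of 12 tested regulators of mitochondrial biogenesis, Yy1 rose (0.72, limma adjusted p = 0.0036) and Ssbp1, which coats single-stranded mitochondrial DNA, fell (-1.36, adjusted p = 0.00019) in mTO-iTreg against TGFβ-iTreg cells. Ssbp1 was at 207 ± 34.8 normalized counts in mTO-iTreg cells, 528 ± 45.4 in TGFβ-iTreg cells and 547 ± 106 in day 0 cells (SD, n = 3 each). Nrf1 (-0.42) and Tfam (-0.08), a packaging and transcription factor of mitochondrial DNA, were not called. Of the 7 genes of mitophagy and of brakes on respiration, Bnip3 was called higher (1.02, adjusted p = 0.04) and Bnip3l lower (-0.65, adjusted p = 0.0081). The call for Bnip3 was lost without mTO-iTreg replicate 1 or 2 or TGFβ-iTreg replicate 1 or 2 (0.063 to 0.16). Of 11 tested genes of electron carriers and quinone synthesis, Coq2 was called higher (0.96, adjusted p = 0.018; lost without mTO-iTreg replicate 2 or TGFβ-iTreg replicate 1 or 3, with 0.055 to 0.062), and of 10 supercomplex and cristae genes, Chchd3 rose (0.87, adjusted p = 0.0023). Of the 13 mRNAs of the mitochondrial genome, 2 were called higher and 8 lower in mTO-iTreg than in TGFβ-iTreg cells (median -1.35), 1 higher and 12 lower in mTO-iTreg than in day 0 cells (median -2.42), and 11 lower in TGFβ-iTreg than in day 0 cells (median -0.96). In the same comparisons, 14.9%, 19.4% and 9.78% of all rows tested were called higher and 11.8%, 14.5% and 8.8% lower. All chrM rows together, ribosomal RNAs included, took 12.2% to 12.5% of mTO-iTreg libraries, 10.4% to 12.3% of TGFβ-iTreg libraries and 17.4% to 19.6% of day 0 libraries, so the mTO-iTreg libraries held less mitochondrial mRNA than the TGFβ-iTreg libraries within a like chrM total, whereas the day 0 total was higher.

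Promoter windows could be matched in RefSeq for 70 of the 82 genes, with only the first listed start of each gene used. The NRF1 core GCGCATGC, sought on both strands, was in 15.7% of these windows, in 6.06% of the windows of rows tested and in 2.8% of all windows. The YY1 core AAGATGGCG was in 10.0%, 3.61% and 1.49%. The ETS core CCGGAAG, bound by GABP, was in 20.0% of the windows of the respiratory chain genes and in 20.0% of those of rows tested, the E-box CACGTG in 10.0% and 10.6%, and the core GACGTG of the hypoxia response element in 8.57% and 9.99%. By direction between mTO-iTreg and TGFβ-iTreg cells, the NRF1 core was in 5 of 14 windows of genes called higher, in 2 of 14 of genes called lower and in 4 of 41 of genes not called. These counts are small and were not tested. A gene of each direction is shown, Cox6a1 (higher in mTO-iTreg cells) and Uqcr11 (lower), because both windows hold the NRF1 and the ETS core, marked in capitals.
Cox6a1 promoter, chr5:115348909-115349208, minus strand: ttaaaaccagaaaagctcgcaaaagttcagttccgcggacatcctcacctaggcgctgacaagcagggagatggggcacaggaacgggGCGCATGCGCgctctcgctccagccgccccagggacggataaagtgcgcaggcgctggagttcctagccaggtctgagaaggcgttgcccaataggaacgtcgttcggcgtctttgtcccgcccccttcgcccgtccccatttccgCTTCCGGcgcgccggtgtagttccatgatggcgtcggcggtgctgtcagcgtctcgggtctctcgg
Uqcr11 promoter, chr10:80406772-80407071, minus strand: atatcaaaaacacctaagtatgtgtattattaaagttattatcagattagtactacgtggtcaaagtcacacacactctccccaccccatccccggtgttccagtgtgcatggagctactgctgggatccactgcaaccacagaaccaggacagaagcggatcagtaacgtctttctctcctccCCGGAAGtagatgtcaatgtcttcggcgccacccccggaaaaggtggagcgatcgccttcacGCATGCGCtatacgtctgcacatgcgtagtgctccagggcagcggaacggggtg

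Of the 82 genes, 30 have an exon that overlaps another annotated gene, and 5 have named pseudogenes. For these, reads could have been shared with the other locus. On the same strand, the overlaps are those of Ndufb2 with Gm42420, Ndufb8 with Gm20538, Ndufb9 with Gm49356 and Atp5g2 with Mir688. Only pseudogenes whose names add -ps to the symbol were counted, so those under other names were not.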

How the data were processed

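RNA of sorted CD4+ T cells was sequenced by a modified CEL-Seq protocol, per the labels' protocols, which reads 3′ ends. BWA, DESeq2 and the build mm10 are named in the submitters' processing notes; the settings used with them are unknown here. Deposited were counts that the authors had normalized by a size factor per library. They are written with decimal commas, and each value was a whole multiple of the worth of 1 read in its library, from which counts and depths were recovered. These values are not raw counts, so log2(normalized count + 1) was fitted with limma 3.58.1 (R 4.3.3) as 3 group means over all 9 libraries, with a variance trend and 6 residual degrees of freedom. Rows with at least 5 in at least 3 libraries were tested (10983 of 14912), with Benjamini-Hochberg adjustment over all of them and a threshold of 0.05. The fold changes are on this scale and understate those of low genes; a ratio of means is given as a fold. The 95% intervals and floors of 3 counts cover counting error only.

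The members and gene lists were chosen with earlier results of these data known. For each comparison and complex, up to 4 called genes a direction with the largest change and a mean of at least 20 were named, besides the core, c-ring, F1 and isoform genes, and up to 3 called genes of each pathway list. The values of 1 gene that the rule names are not reported here. Genes named beyond this rule were chosen after their values were seen. Positions are from GENCODE M21 (GRCm38), in which 81 members were matched. Alternatives covered the added count, filter, scaling, design and left-out libraries; limma-voom on recovered counts was added after seeing the data. Over all rows tested, same-numbered libraries did not deviate together (correlations of -0.05 to 0.06), and replicate numbers were not used as pairs. Same-numbered day 0 and TGFβ-iTreg libraries have adjacent codes, however, and Xist was highest in replicate 3 of both groups. Whether these libraries share source animals was not tested. Calculations were tested on simulated data. Annotation used pandas 2.3.3 and numpy 2.4.6 under Python 3.11.15, and figures matplotlib 3.10.9.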

Additional observations from a re-analysis of the deposited data

Results flagged for a closer look

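Between the induced groups, 2 genes had opposite differences from day 0 that passed the threshold in each. Cox4i1 was called lower in mTO-iTreg cells (log2 -0.59) and higher in TGFβ-iTreg cells (0.33) than in day 0 cells, and the difference between these changes, which equals that between the induced groups, was -0.92 (limma adjusted p = 3.1e-05). Atp5j was at -0.72 in mTO-iTreg cells and 0.46 in TGFβ-iTreg cells against day 0, with a difference of -1.17 (adjusted p = 3.6e-05). Every mTO-iTreg library was below, and every TGFβ-iTreg library above, all day 0 libraries for both genes. The calls of TGFβ-iTreg cells against day 0 were lost without single libraries, as given above.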

How the results depend on the processing

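Over 23 alternatives, no called gene turned its direction. Between mTO-iTreg and TGFβ-iTreg cells, 10 of the 18 genes called higher and 13 of the 19 called lower kept their calls in every one; for mTO-iTreg against day 0 cells these were 25 of 32 and 4 of 7, and for TGFβ-iTreg against day 0 cells 9 of 31 and 0 of 1. Leaving out 1 library at a time gave 13 to 18 genes higher and 15 to 18 lower between the induced groups, 28 to 32 higher and 7 to 11 lower in mTO-iTreg against day 0 cells, and 15 to 31 higher and 0 to 1 lower in TGFβ-iTreg against day 0 cells, with medians of -0.13 to -0.08, 0.10 to 0.28 and 0.28 to 0.35. With equal library totals, the median of all rows was 0.31 in mTO-iTreg and 0.23 in TGFβ-iTreg against day 0 cells, and those of the members were 0.46 and 0.57, with 4 genes lower in mTO-iTreg and 53 higher in TGFβ-iTreg cells; TMM factors gave 12 lower in mTO-iTreg against day 0 cells. In TGFβ-iTreg against day 0 cells, 12 genes were higher without a variance trend and 12 without the shallowest library of each of these groups, and Ndufaf4, the gene called lower, was not called (0) without a filter, with equal totals, quantile normalization, totals without chrM and Rn45s, the 2 groups alone, no variance trend, array weights, without the shallowest libraries, or with limma-voom. With the replicate block, 17 genes were higher and 17 lower between the induced groups, 30 and 8 in mTO-iTreg against day 0 cells, and 28 and 1 in TGFβ-iTreg against day 0 cells; 5 of 9 libraries correlated best with their own number. With TMM factors, the complex III and V medians in mTO-iTreg against day 0 cells were -0.03 and -0.01. Over all rows, limma-voom called 3723, 3416 and 1416 where limma called 2924, 3723 and 2040 in the 3 comparisons. Depth limits low genes, as 1 read in the shallowest library was worth 2.69 normalized counts. Where not stated, the cause of a change was not tested.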
